A study of Homo sapiens with 8 samples.

Results

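The 10 genes described here encode surface proteins that hold cells to leukocytes, to matrix or to each other: ICAM1, VCAM1, CD44, CD47, the syndecans SDC1, SDC2, SDC3 and SDC4, and the integrin α chains ITGA2 and ITGA5. They were chosen by name, with earlier results of these data known. They were matched to the Ensembl gene identifiers of the deposited tables through GENCODE release 29, and all 10 were found among the 58735 genes of the tables. The expression values are FPKM (fragments scaled by exon length and library size), so that levels of different genes are set side by side per length. All 10 passed the filter of 10 reads, scaled to the median depth, in 2 or more libraries, and entered the test with 16528 genes in all. VCAM1, with 0 to 2 reads in each library without TNF-α, passed only through the libraries with TNF-α.

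U2OS cells, an established human osteosarcoma line, carried either a control shRNA (control cells) or an shRNA against WSB2 (KD cells), a substrate receptor of a ubiquitin ligase, which the study relates to the NF-κB subunit RelA. Each kind of cell was left unstimulated or given TNF-α for 5 h, which makes 4 groups of 2 libraries of bulk RNA-seq: control and KD cells without TNF-α, and control and KD cells with TNF-α. All groups share the line and a transduced shRNA. The labels read only shWSB2, and the study's legend names a WSB2 shRNA for these libraries without saying which. The TNF-α dose and whether the 2 libraries of a group came from separate cultures are not given in the sources used here. The p-values thus measure only the spread between these libraries, which may be technical. The comparisons ask how TNF-α moved the adhesion genes in each kind of cell, whether KD cells differed from control cells at either state, and whether the 2 effects depended on each other.

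As background, TNF-α activates NF-κB, and cells at inflamed sites then display more of the immunoglobulin-family ligands ICAM1 and VCAM1, to which integrins on leukocytes bind. CD44 is the main receptor for hyaluronan, and CD47 is the ligand through which cells restrain phagocytes that carry SIRPA. Syndecans are membrane proteoglycans whose heparan sulfate chains hold chemokines, growth factors and matrix proteins, and integrin α chains pair with β chains to bind matrix, ITGA2 as a collagen receptor and ITGA5 as the classical fibronectin receptor.

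Promoter letters are shown for ICAM1, VCAM1 and SDC4. These are the immunoglobulin-family ligands and the member with the largest difference in log2(FPKM + 1) with TNF-α. By the ratio of mean FPKM in control cells, VCAM1 (17.7) and ICAM1 (8.95) stood above SDC4 (3.18). The RefSeq table of 300 bases per start (250 before and 50 after, GRCh38.p14) held 9 of the 10 members. The words GGNNNTTCC and GGNNNTCCC, short forms of the κB motif that may overlap each other, were searched on both strands, as was the κB consensus by its full name, and their matches are in capitals. For ICAM1 only a stretch of 29 bases around the match is given. The annotated gene starts at 10270835, before the window of 10270870 to 10271169, so the window and the printed stretch lie within the annotated gene. For VCAM1 and SDC4 the 250 bases before the start are given, 5′ to 3′ on the strand of the gene.

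ICAM1, chr19:10270924-10270952, plus strand: gctttagcttGGAAATTCCggagctgaag
VCAM1, chr1:100719492-100719741, plus strand: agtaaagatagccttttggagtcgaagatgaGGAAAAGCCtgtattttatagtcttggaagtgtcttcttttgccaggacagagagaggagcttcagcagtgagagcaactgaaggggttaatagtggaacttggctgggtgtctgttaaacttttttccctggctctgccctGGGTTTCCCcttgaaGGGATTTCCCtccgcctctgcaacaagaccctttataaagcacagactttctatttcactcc
SDC4, chr20:45348425-45348674, minus strand: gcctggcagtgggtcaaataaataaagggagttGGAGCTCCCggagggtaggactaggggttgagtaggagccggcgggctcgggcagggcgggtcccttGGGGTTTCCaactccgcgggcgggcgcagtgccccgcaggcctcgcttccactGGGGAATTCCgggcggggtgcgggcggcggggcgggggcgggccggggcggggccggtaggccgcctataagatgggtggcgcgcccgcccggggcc

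The ICAM1 match lies at -186 to -178 from the RefSeq start and reads on both strands. VCAM1 held a pair of matches close to the start, at -77 to -69 and at -62 to -53, of which the second is a full consensus match on both strands, and a further match on the minus strand at -219 to -211. SDC4 held matches at -217 to -209, at -150 to -142 and at -97 to -88, the last of them a full consensus match. SDC1, SDC3 and ITGA5 also held a short word within their windows, and the full consensus stood in those of SDC1 and ITGA5. The SDC1 window at 20225426 to 20225725 held no match. All SDC1 matches stood in the window at 20225081 to 20225380, which lies inside the annotated gene, and 1 word there lay after the start, at 18 to 26. The windows of CD44, CD47 and ITGA2 held none. Over all 35116 promoters of the table, 35.9% held 1 of the short words and 11.3% the consensus. These matches describe letters only, and the members shown were picked with their expression already known.

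The libraries held 15601098 to 18677023 reads. WSB2 averaged 27.9 ± 0.198 FPKM (SD, n = 2) in control and 8.45 ± 0.0955 (SD, n = 2) in KD cells without TNF-α, and 25.1 ± 0.196 (SD, n = 2) and 9.09 ± 0.128 (SD, n = 2) with TNF-α. Its log2 difference was -1.61 without TNF-α (adjusted p = 0.000119, limma) and -1.37 with TNF-α (adjusted p = 0.00113, limma). The KD libraries without TNF-α stood apart from the other 6. The share of mitochondrial reads was 4.10% to 4.42% in these 2 against 1.11% to 2.03%. The average GC content of the genes, weighted by their reads, was 49.4% to 49.9% against 52.5% to 53.2%. In these 2, 26225 to 26397 genes had a read against 22072 to 22957. The library size within the FPKM values was 1.21 times the reads against 0.925 to 1.03 times. The group is made up of these libraries alone, so its shRNA and state cannot be told apart from their composition in any comparison that uses it. Among cell type markers, SPARC (216 to 293 FPKM), COL1A1 (172 to 269 FPKM) and VIM (146 to 240 FPKM) were high, whereas the osteoblast lineage markers RUNX2 (1.29 to 2.94 FPKM) and ALPL (1.22 to 5.41 FPKM) were low and COL1A2 was at or under 0.0934 FPKM. The keratins KRT8 (126 to 362 FPKM) and KRT18 (74.3 to 197 FPKM) were high as well, whereas EPCAM and CDH1 stayed at or under 0.482 FPKM. Of the leukocyte markers, PTPRC, CD3E, CD14 and ITGAL stayed at or under 0.245 FPKM and ITGB2 was at 0.779 to 1.87 FPKM. The endothelial markers PECAM1, KDR, SELE, CDH5, VWF and TEK did not exceed 0.388 FPKM.

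SDC4 had the highest FPKM of the 10 genes in every group and VCAM1 the lowest. In unstimulated control cells the order of mean FPKM was SDC4 (116), SDC1 (97.4), ITGA5 (35.4), CD44 (25.3), SDC3 (21.0), SDC2 (10.6), ITGA2 (2.66), CD47 (1.92), ICAM1 (0.204) and VCAM1 (0.0110). The libraries of neighbours in this order did not overlap, except those of ITGA2 and CD47. With TNF-α the order in control cells was the same, while in KD cells with TNF-α ITGA2 (8.45) stood above SDC2 (5.09). Because the levels differ so widely, the plot of FPKM in each library gives each gene its own axis.

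**Figure D1:**
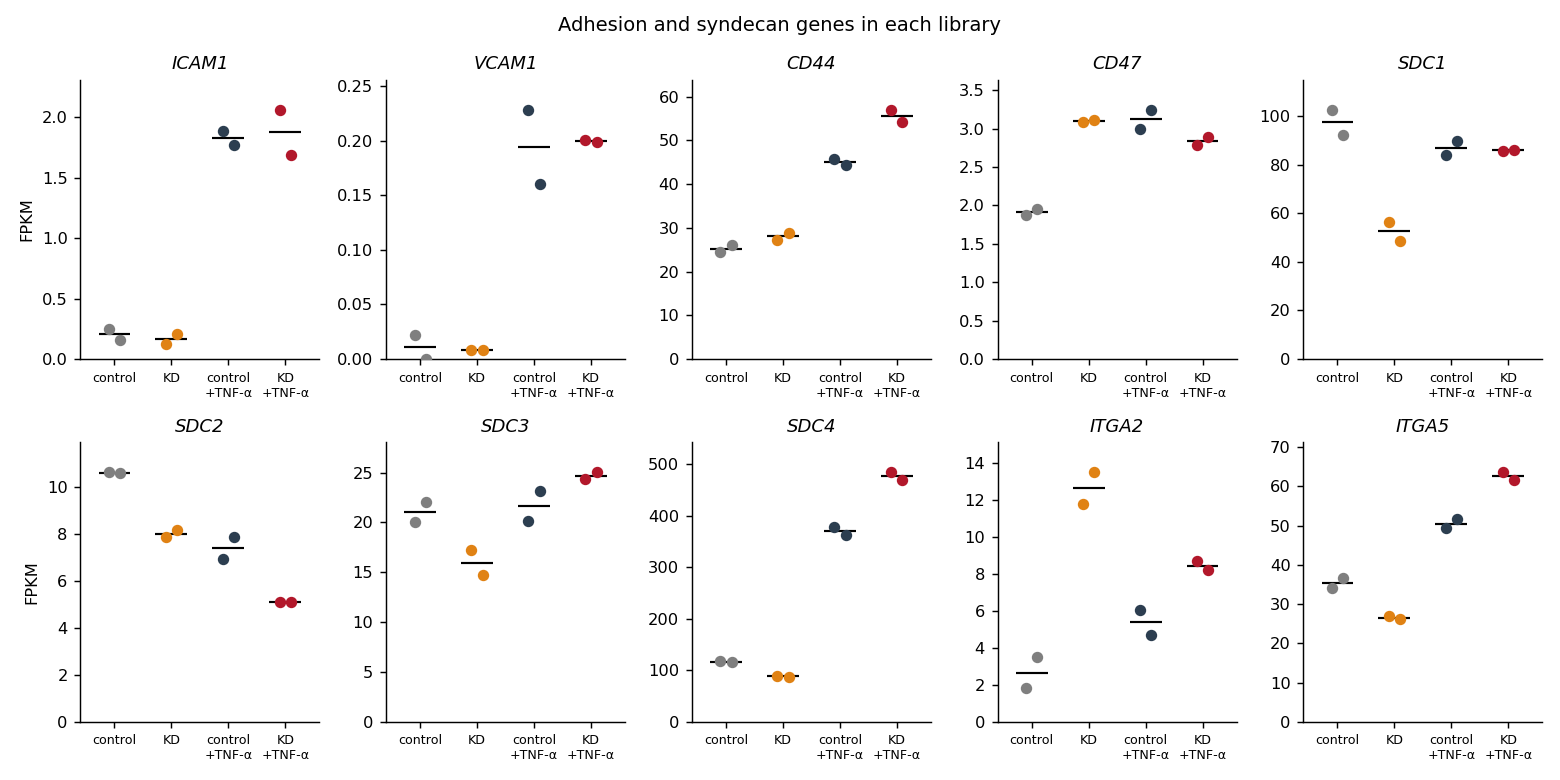
FPKM of the 10 genes in each library (points) with the group mean (line), for control and KD cells without and with TNF-α, on linear axes that start at 0 and differ between panels. ICAM1, VCAM1, CD44, SDC4 and ITGA5 are higher in all 4 libraries with TNF-α than in all 4 without, and SDC1 and ITGA2 of unstimulated KD cells stand away from the other groups.

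In control cells, TNF-α raised ICAM1, VCAM1, CD44, CD47, SDC4 and ITGA5 and lowered SDC2. In the limma test, 6 of the 10 genes were higher at an adjusted p under 0.05, against 3.1% of all 16528 genes tested, and 1 was lower, against 1.14%. The members were chosen with earlier results of these data known, so their counts and medians are no independent test against all genes. VCAM1, counted here and in KD cells, passed the filter on low reads only through the stimulated libraries. The median log2 difference of the 10 genes was 0.50, against 0.0085 over all genes tested. In KD cells 7 of the 10 were higher, against 31.1% of all genes, and 1 was lower, against 31.4%, with a median of 0.65 against -0.015, and this comparison uses the libraries that stood apart. Over all genes, 512 were higher and 189 lower in control cells, and 379 and 250 when libraries were scaled to total reads, and the 5141 and 5187 in KD cells became 3309 and 7239, with the all-gene median at -0.19, and 6127 and 4075 with upper-quartile scaling. Both comparisons are given gene by gene below on the log2(FPKM + 1) scale, which understates the change of genes with low FPKM.

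ICAM1 (ENSG00000090339, chromosome 19, 10270835 to 10286615, plus strand, GRCh38), the ligand of the leukocyte integrins LFA-1 and Mac-1, was nearly silent without TNF-α. It had 0.252 and 0.156 FPKM in control and 0.123 and 0.210 FPKM in KD cells, from 9 to 15 reads per library. With TNF-α it had 1.88 and 1.77 FPKM in control and 2.06 and 1.69 FPKM in KD cells. All 4 stimulated libraries were above all 4 unstimulated ones, and control and KD libraries overlapped at both states. From the summed reads the ratio of stimulated to unstimulated cells was 9.11 in control cells (212 against 24 reads, exact 95% interval 5.96 to 14.5) and 11.4 in KD cells (231 against 24 reads, 7.46 to 18.1); these intervals cover counting error only. The log2 difference was 1.23 ± 0.098 (SE, adjusted p = 0.00044, limma) in control and 1.30 ± 0.098 (SE, adjusted p = 6.1e-05, limma) in KD cells. An antisense gene, AC011511.5, lies over 22.0% of the exon bases of ICAM1 and had no read; whether the counting used strand is not stated.

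VCAM1 (ENSG00000162692, chromosome 1, 100719742 to 100739045, plus strand), the ligand of the integrin VLA-4, gave 81 reads over all 8 libraries. Control cells had 2 and 0 reads without TNF-α and 22 and 15 with it, and KD cells had 1 and 1 without and 21 and 19 with it. In FPKM this is 0.0221 and 0 against 0.229 and 0.161 in control cells, and 0.00834 and 0.00856 against 0.201 and 0.199 in KD cells. No unstimulated library reached a stimulated one, and control and KD libraries did not separate at either state. The ratio from summed reads was 19.1 in control (37 against 2 reads, exact 95% interval 4.92 to 163) and 23.7 in KD cells (40 against 2 reads, 6.13 to 202). The log2 difference of 0.24 ± 0.049 (SE) in control cells had an adjusted p of 0.040 in limma, and that of 0.25 ± 0.049 (SE) in KD cells one of 0.0029. The call in control cells was lost in 14 of 17 alternative settings, with adjusted p from 0.015 to 0.21 in limma over them.

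The genes whose log2(FPKM + 1) followed ICAM1 most closely over the 8 libraries, among tested genes of mean FPKM of at least 5, were CSF2, PTX3 and CCL2, each with a Pearson r of 0.994. The same 3 genes came first for VCAM1, with r of 0.986 for CCL2, 0.985 for PTX3 and 0.984 for CSF2. CSF2 and CCL2 encode a colony-stimulating factor and a chemokine, and PTX3 a secreted pattern-recognition protein. These values describe 8 libraries in which stimulation is the shared source of difference.

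CD44 (ENSG00000026508, chromosome 11, 35138870 to 35232402, plus strand) had 24.5 and 26.1 FPKM in control and 27.3 and 28.9 FPKM in KD cells without TNF-α. With TNF-α it had 45.8 and 44.4 FPKM in control and 57.0 and 54.2 FPKM in KD cells. The 4 groups did not overlap, and KD cells with TNF-α were the highest. TNF-α gave a log2 difference of 0.81 ± 0.075 (SE, adjusted p = 0.00098, limma) in control and 0.96 ± 0.075 (SE, adjusted p = 6.6e-05, limma) in KD cells. The call held in all 17 alternative settings in each kind of cell.

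CD47 (ENSG00000196776, chromosome 3, 108043094 to 108091862, minus strand) had 1.88 and 1.96 FPKM in unstimulated control cells and 2.995 and 3.25 FPKM in stimulated ones. In KD cells it had 3.09 and 3.11 FPKM without and 2.79 and 2.89 FPKM with TNF-α. The unstimulated control libraries were thus lower than the other 6, which lay between 2.79 and 3.25 FPKM. The log2 difference with TNF-α was 0.50 ± 0.097 (SE, adjusted p = 0.033, limma) in control cells, where the call was lost in 11 of 17 alternative settings (adjusted p from 0.0064 to 0.22, limma), and -0.09 ± 0.097 (SE, adjusted p = 0.42, limma) in KD cells. In a fit that took out the trend of each library with GC content and length (the GC and length correction), the value in KD cells turned to 0.58 and was called (adjusted p = 0.0017, limma).

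**Figure D2:**
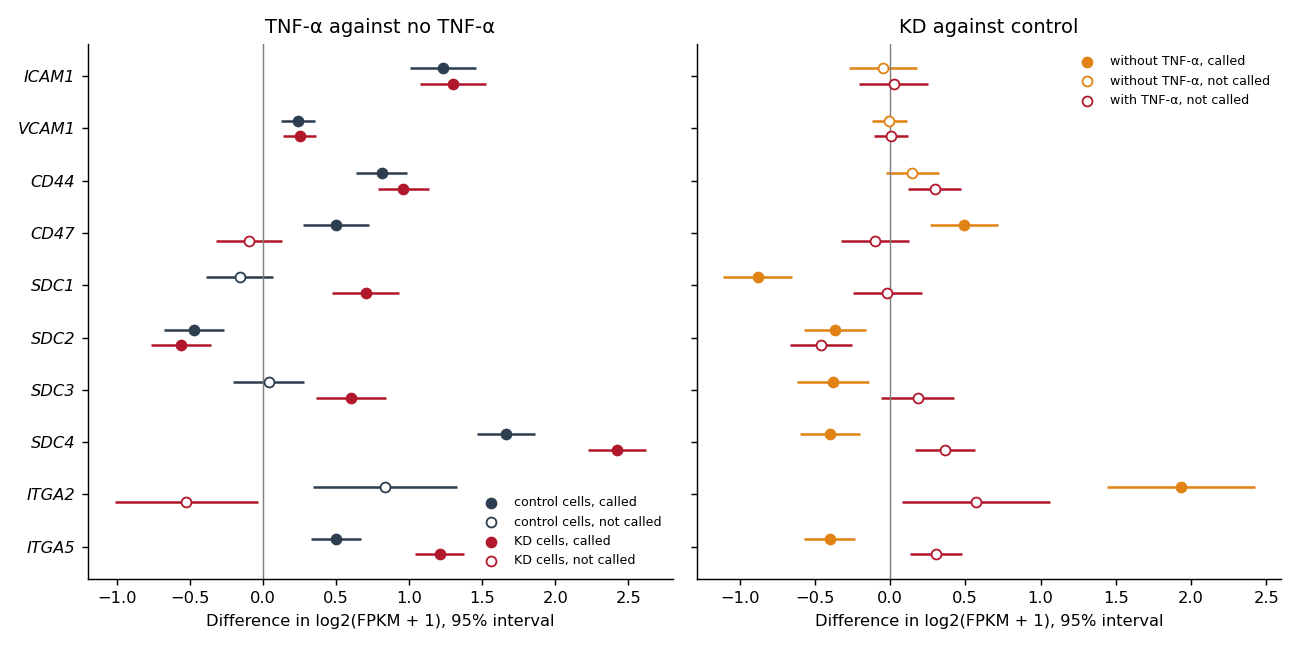
Difference in log2(FPKM + 1) with its 95% interval from limma for TNF-α against no TNF-α (left, control and KD cells) and KD against control (right, without and with TNF-α). Filled points passed an adjusted p of 0.05 over 16528 genes and open points did not. On the left 7 genes are filled for control and 8 for KD cells, on the right 7 without and 0 with TNF-α. These counts have unlike backgrounds. On the left, 3.1% of all tested genes were called higher and 1.14% lower for control, against 31.1% and 31.4% for KD. On the right the shares were 29.8% and 30.2% without TNF-α, against 0.0605% and 0.0545% with it.

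The syndecans did not move together. Their summed FPKM was 240 to 251 in unstimulated control cells, 483 to 489 in stimulated control cells, 159 to 170 in unstimulated KD cells and 586 to 599 in stimulated KD cells. SDC4 made up 46.8% and 48.0% of that sum in unstimulated and 77.2% and 75.0% in stimulated control cells, and 52.1% and 54.9% against 80.8% and 80.2% in KD cells. The share of SDC1 was 41.0% and 38.4% in unstimulated and 17.2% and 18.6% in stimulated control cells. The stacked plot of the syndecans shows that SDC4 accounts for most of the rise of the sum.

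**Figure D3:**
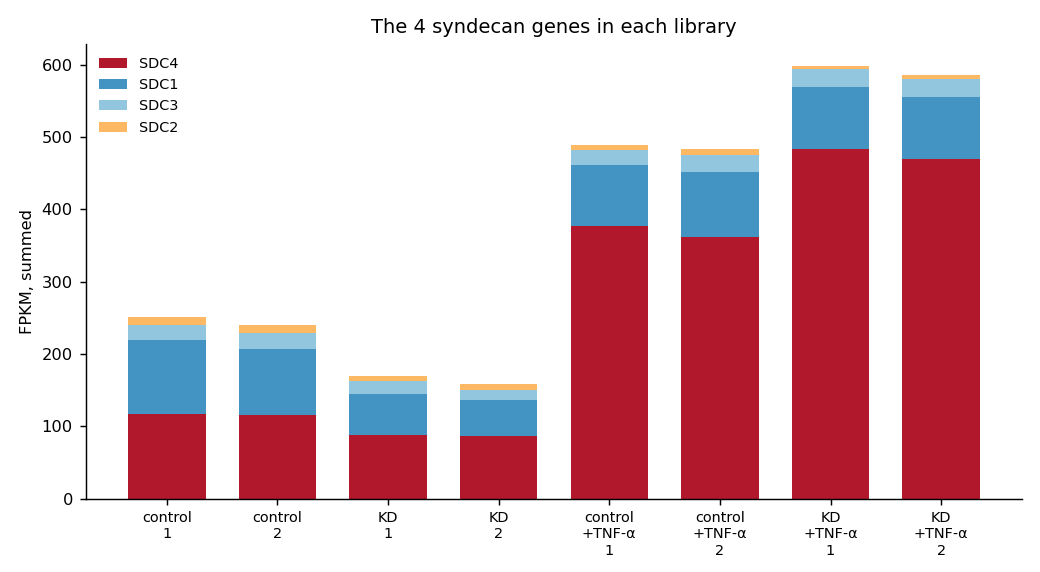
FPKM of SDC4, SDC1, SDC3 and SDC2 stacked for each of the 8 libraries, from 0. The sums lie at 240 to 251 in unstimulated and 483 to 489 in stimulated control cells, and SDC4, the bottom segment, is the part that grows.

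SDC4 (ENSG00000124145, chromosome 20, 45325288 to 45348424, minus strand), the broadly expressed syndecan that works with integrins at focal adhesions, had 117 and 115 FPKM in unstimulated and 378 and 362 FPKM in stimulated control cells. In KD cells it had 88.7 and 87.2 FPKM without and 484 and 470 FPKM with TNF-α. The 4 groups did not overlap, and KD cells were the lowest without and the highest with TNF-α. TNF-α raised it 3.18-fold in mean FPKM in control cells (log2 difference 1.66 ± 0.085, SE, adjusted p = 4.5e-05, limma) and 5.42-fold in KD cells (2.43 ± 0.085, SE, adjusted p = 4.1e-06, limma). By p it ranked 30 of 16528 genes in control and 19 in KD cells. The genes that followed it most closely over the 8 libraries were MYC (r = 0.999), GFPT2 (r = 0.999) and TNFAIP1 (r = 0.998), with the same caution as for ICAM1.

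SDC1 (ENSG00000115884, chromosome 2, 20200797 to 20225433, minus strand), best known from epithelia and plasma cells, had 103 and 92.1 FPKM in unstimulated and 84.2 and 89.8 FPKM in stimulated control cells. In KD cells it had 56.5 and 48.6 FPKM without and 85.6 and 86.1 FPKM with TNF-α. Only the unstimulated KD libraries fell outside the range of 84.2 to 103 FPKM. TNF-α gave a log2 difference of -0.16 ± 0.099 (SE, adjusted p = 0.47, limma) in control and 0.70 ± 0.099 (SE, adjusted p = 0.00056, limma) in KD cells. With the GC and length correction the difference in KD cells was 0.10 and was not called (adjusted p = 0.19, limma).

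SDC3 (ENSG00000162512, chromosome 1, 30869467 to 30908761, minus strand), known from neural and skeletal tissue, had 20.1 and 22.0 FPKM in unstimulated and 20.2 and 23.2 FPKM in stimulated control cells. In KD cells it had 17.2 and 14.7 FPKM without and 24.4 and 25.0 FPKM with TNF-α. Control libraries overlapped between states and KD libraries did not. The log2 difference with TNF-α was 0.04 ± 0.10 (SE, adjusted p = 0.90, limma) in control and 0.60 ± 0.10 (SE, adjusted p = 0.0015, limma) in KD cells, and the latter was 0.15 and not called with the GC and length correction.

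SDC2 (ENSG00000169439, chromosome 8, 96493351 to 96611780, plus strand), the syndecan of mesenchymal cells, was the member that TNF-α lowered. It had 10.60 and 10.57 FPKM in unstimulated and 6.90 and 7.85 FPKM in stimulated control cells, and 7.85 and 8.13 against 5.10 and 5.08 FPKM in KD cells. Within each kind of cell the stimulated libraries were below the unstimulated ones, and KD cells with TNF-α were the lowest of all. The log2 difference was -0.47 ± 0.088 (SE, adjusted p = 0.029, limma) in control and -0.56 ± 0.088 (SE, adjusted p = 0.00093, limma) in KD cells. The first call was lost in 7 of 17 alternative settings (adjusted p from 0.018 to 0.19, limma) and the second in none.

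ITGA5 (ENSG00000161638, chromosome 12, 54395261 to 54419460, minus strand) had 34.1 and 36.6 FPKM in unstimulated and 49.3 and 51.6 FPKM in stimulated control cells. In KD cells it had 26.9 and 26.1 FPKM without and 63.6 and 61.6 FPKM with TNF-α. As with SDC4, the groups did not overlap and KD cells were the lowest without and the highest with TNF-α. The log2 difference with TNF-α was 0.50 ± 0.073 (SE, adjusted p = 0.010, limma) in control and 1.21 ± 0.073 (SE, adjusted p = 3.3e-05, limma) in KD cells. Without either 1 of the stimulated control libraries the first value was 0.47 to 0.53 and was not called.

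ITGA2 (ENSG00000164171, chromosome 5, 52989326 to 53094779, plus strand) had 1.82 and 3.50 FPKM in unstimulated and 6.06 and 4.71 FPKM in stimulated control cells. In KD cells it had 11.8 and 13.5 FPKM without and 8.68 and 8.21 FPKM with TNF-α. Its unstimulated control libraries differed the most from each other among the better expressed members, and KD libraries were above control libraries at both states. The log2 difference with TNF-α was 0.83 ± 0.21 (SE, adjusted p = 0.080, limma) in control and -0.53 ± 0.21 (SE, adjusted p = 0.061, limma) in KD cells. Without the second unstimulated control library, which left 1 in that group, the first value was 1.17 and was called. Without either unstimulated control library the second value stayed at -0.53 and was called, where only the pooled spread of the fit changed. With the GC and length correction the second value turned to 0.054 and was not called.

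With TNF-α, no member was called between KD and control cells. This fit pools the spread of all 4 groups, which differed. Chi-square per gene against counting error, over genes of at least 50 reads in the pair, was 33.0 between the unstimulated control libraries. It was 7.23 in unstimulated KD, 4.63 in stimulated control and 2.49 in stimulated KD cells. With only the 4 libraries compared, 0 members were called as well. The limma test called 0 of 10 members higher, against 0.0605% of all genes tested, and 0 lower, against 0.0545%, and the voom fit of the recovered reads also called 0. At an unadjusted p under 0.05, 5 members passed, against 8.16% of all genes. Both KD libraries were above both control libraries for 5 members (CD44, SDC3, SDC4, ITGA2 and ITGA5), against 23.9% of all genes, and below them for 2 (CD47 and SDC2), against 22.3%. The other 3, ICAM1, VCAM1 and SDC1, overlapped. The median log2 difference of the 10 genes was 0.10, against -0.00015 over all genes tested.

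The 5 members at an unadjusted p under 0.05 were SDC2, SDC4, ITGA5, CD44 and ITGA2. SDC2 had a log2 difference of -0.46 (95% interval -0.66 to -0.25, adjusted p = 0.14, limma), from 6.90 and 7.85 FPKM in control to 5.10 and 5.08 in KD cells. SDC4 had one of 0.37 (0.17 to 0.56, adjusted p = 0.23, limma), a ratio of mean FPKM of 1.29. ITGA5 (0.31, interval 0.13 to 0.48, adjusted p = 0.24, limma) and CD44 (0.30, interval 0.12 to 0.47, adjusted p = 0.28, limma) were of like size. ITGA2 had 0.57 with the wider interval of 0.08 to 1.06 (adjusted p = 0.52, limma). None was called under any of the 17 alternative settings, over which the lowest adjusted p in limma were 0.056 for SDC4, 0.071 for SDC2 and ITGA5, 0.087 for CD44 and 0.11 for ITGA2.

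For ICAM1 and VCAM1 the data bound the KD effect with TNF-α. The ratio of KD to control from summed reads was 1.03 for ICAM1 (231 against 212 reads, exact 95% interval 0.853 to 1.25) and 1.02 for VCAM1 (40 against 37 reads, 0.638 to 1.65), which cover counting error only. The interval of the log2 difference was -0.20 to 0.25 for ICAM1 and -0.11 to 0.12 for VCAM1. The log2(FPKM + 1) scale understates the change of genes with low FPKM, so the narrow interval of VCAM1 is not a tight bound on its fold change. SDC1 had a difference of -0.02 (interval -0.25 to 0.21), CD47 one of -0.10 (interval -0.33 to 0.12) and SDC3 one of 0.18 (interval -0.06 to 0.43).

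Without TNF-α, KD cells had more CD47 and ITGA2 and less SDC1, SDC2, SDC3, SDC4 and ITGA5 than control cells. In the limma test 2 members were higher, against 29.8% of all genes tested, and 5 were lower, against 30.2%. The median log2 difference was -0.21 for the members and -0.0010 for all genes. With these shares, 7 calls among 10 members are near the background.

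ITGA2 rose the most, with a log2 difference of 1.93 ± 0.21 (SE, adjusted p = 0.00027, limma), from 1.82 and 3.50 to 11.8 and 13.5 FPKM. CD47 rose by 0.49 ± 0.097 (SE, adjusted p = 0.0032, limma). SDC1 had the largest fall, with -0.88 ± 0.099 (SE, adjusted p = 0.00030, limma). ITGA5 (-0.40), SDC4 (-0.40), SDC3 (-0.38) and SDC2 (-0.37) fell by similar amounts, with adjusted p from 0.0022 to 0.015 in limma. CD44 (0.15, adjusted p = 0.12, limma), ICAM1 (-0.05) and VCAM1 (-0.0036) were not called.

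The difference of unstimulated KD from control cells moved with the GC content of the genes. Across the 16520 tested genes with GC content, which are not independent replicates, the Spearman rho of the log2 difference with GC content was -0.68 without TNF-α and 0.03 with TNF-α. The GC content of a gene is that of its longest annotated transcript. Over the 10 members, whose longest transcripts hold from 35.0% GC (VCAM1) to 60.1% GC (SDC1), rho was -0.75 without and 0.10 with TNF-α. CD47 holds 38.4% GC and ITGA2 40.2%, while ITGA5 holds 54.5% and SDC3 58.7%. The GC and length correction left ITGA2 at 1.30, SDC2 at -0.58, SDC1 at -0.32, SDC4 at -0.23 and ITGA5 at -0.22, all called. It turned CD47 to -0.23 (adjusted p = 0.075, limma), CD44 to -0.17 (adjusted p = 0.048, limma) and ICAM1 to 0.42 (adjusted p = 0.011, limma), and left SDC3 at -0.03 (adjusted p = 0.80, limma). It gave VCAM1 -0.73, a value that the correction itself adds to a gene with 0 to 2 reads per library. Scaling to total reads, under which the all-gene median shifted by 0.13, took the calls of SDC2 (-0.11), SDC3 (-0.11), SDC4 (-0.12) and ITGA5 (-0.13), gave CD44 a call at 0.42 (adjusted p = 0.0032, limma), opposite in sign to its value with the GC and length correction, and changed the calls over all genes from 4932 higher and 4996 lower to 6517 and 3456. Upper-quartile scaling moved that median by -0.11 and gave 3804 higher and 6272 lower.

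**Figure D4:**
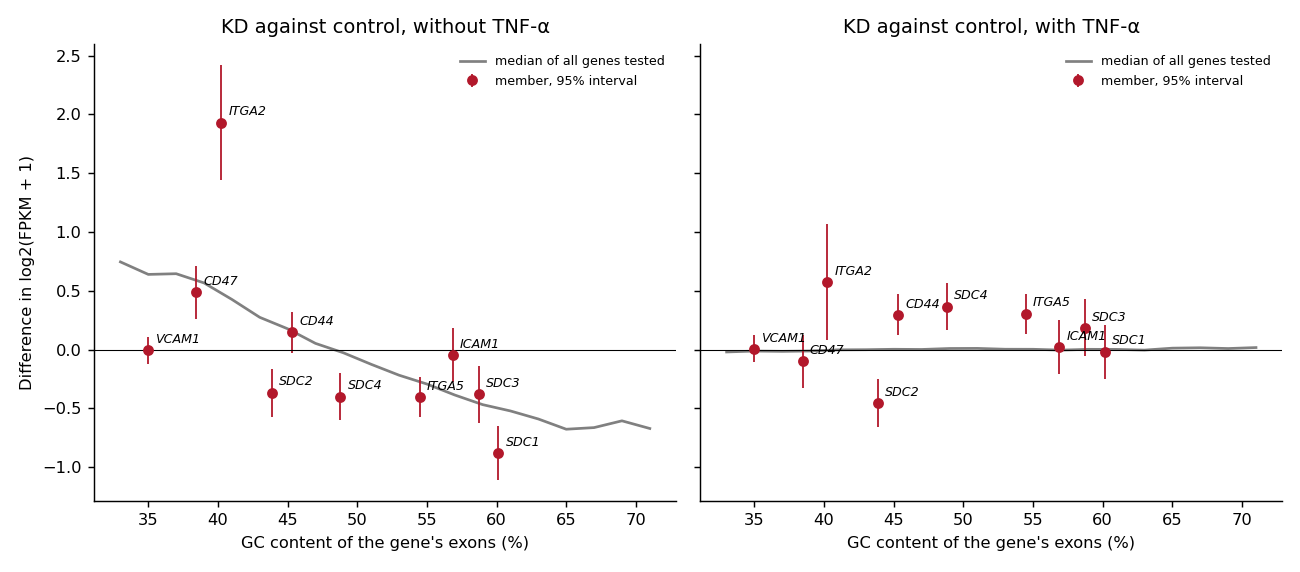
Difference in log2(FPKM + 1) between KD and control cells (points, with 95% interval from limma), without TNF-α (left) and with TNF-α (right). The horizontal axis is the GC content of each member's longest annotated transcript, which its label calls the gene's exons. The grey line is the median of all tested genes in bins of 2 percentage points, which falls from 0.75 to -0.67 on the left and stays between -0.02 and 0.02 on the right.

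The response to TNF-α differed between KD and control cells in 6 members by the interaction term, which is at the same time the change of the KD effect with TNF-α. Higher in KD cells were SDC1 (0.86 ± 0.14, SE, adjusted p = 0.0030, limma), SDC4 (0.76 ± 0.12, SE, adjusted p = 0.0027, limma), ITGA5 (0.71 ± 0.10, SE, adjusted p = 0.0023, limma) and SDC3 (0.56 ± 0.15, SE, adjusted p = 0.016, limma), 4 of 10 against 23.8% of all genes. Lower were ITGA2 (-1.36 ± 0.30, SE, adjusted p = 0.0084, limma) and CD47 (-0.59 ± 0.14, SE, adjusted p = 0.010, limma), 2 of 10 against 22.3%. The terms of SDC2 (-0.09, 95% interval -0.38 to 0.20), CD44 (0.15, interval -0.10 to 0.39), ICAM1 (0.07, interval -0.25 to 0.39) and VCAM1 (0.01, interval -0.15 to 0.17) were not called. All of these terms contain the unstimulated KD libraries, and over all genes 3935 were higher and 3679 lower, against 2440 and 4967 with total reads (all-gene median -0.14) and 5138 and 2780 with upper-quartile scaling (0.12). With the GC and length correction SDC4 (0.58, adjusted p = 0.0055, limma), ITGA5 (0.51, adjusted p = 0.0054, limma), SDC1 (0.30, adjusted p = 0.030, limma) and ITGA2 (-0.73, adjusted p = 0.045, limma) were still called, SDC3 (0.21, adjusted p = 0.20, limma) and CD47 (0.14, adjusted p = 0.45, limma) were not, and CD44 (0.45, adjusted p = 0.0084, limma) was. VCAM1 was called too (0.74, adjusted p = 0.0034, limma), a value that rests on what the correction adds to a gene with few reads. The part of the composition of these libraries in the terms was not tested beyond that.

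Partners of the members were taken from 11 lists of 120 genes, of which 96 were tested: other immunoglobulin-family receptors, selectins and their ligands, leukocyte and other integrin chains, integrin adaptors, partners of CD44 and of CD47, glypicans, heparan sulfate enzymes, syndecan adaptors and sheddases. TNF-α in control cells raised 3 of the 96 and lowered 0, near the shares of 3.1% and 1.14% over all genes. These were ALCAM, an immunoglobulin-family receptor (0.59 ± 0.13, SE, adjusted p = 0.048, limma), ITGAM, the α chain of Mac-1 (0.36 ± 0.072, SE, adjusted p = 0.036, limma), and EXT1, a polymerase of heparan sulfate chains (0.45 ± 0.069, SE, adjusted p = 0.013, limma). ITGAM was low, with 152 reads over the 8 libraries, and with the GC and length correction it was not called (0.29, adjusted p = 0.097, limma), whereas ALCAM (0.55) and EXT1 (0.40) were. EXT1 had 27.2 and 28.9 FPKM in unstimulated and 38.2 and 39.2 FPKM in stimulated control cells, and 22.3 and 22.3 against 42.2 and 43.0 FPKM in KD cells. Its interaction term was 0.45 (adjusted p = 0.0080, limma).

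With TNF-α, 0 of the 96 partner genes differed between KD and control cells in limma. Without TNF-α, 27 were higher and 31 lower, near the background above. ITGB1, the β chain that pairs with ITGA2 and ITGA5, had 67.2 and 94.8 FPKM in unstimulated control and 184 and 201 FPKM in unstimulated KD cells, and 83.3 to 98.6 FPKM in the 4 stimulated libraries. Its log2 difference without TNF-α was 1.26 ± 0.15 (SE, adjusted p = 0.00036, limma), and 0.70 with the GC and length correction. ITGA6 (1.64) and ITGAV (1.58) rose as well, whereas ITGAE (-0.64), ITGB5 (-0.51) and ITGA3 (-0.42) fell. With the correction ITGA6 stood at 1.25, ITGAV at 0.85, ITGAE at -0.41 and ITGB5 at -0.28, all called, and ITGA3 at -0.09, not called (adjusted p = 0.25, limma). Among 14 tested chains of that list 5 were higher and 5 lower.

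The sheddases, which cut syndecans and CD44 from the surface, were split in a like manner. ADAM9 (1.42), ADAM10 (1.203) and ADAM17 (0.60) were higher and ADAM15 (-1.18) and the inhibitor TIMP3 (-0.52) lower in unstimulated KD than control cells, 3 and 2 of 6 tested. With the correction ADAM10 stood at 0.37 and ADAM17 at -0.17, the latter not called. Over all genes tested, 29.8% were higher and 30.2% lower in this comparison, which applies to each count of this paragraph. Of 19 heparan sulfate enzymes 4 were higher, led by EXTL2 (1.21), and 7 lower, led by B4GALT7 (-0.99), which was -0.52 with the correction. Of 8 CD44 partners 3 were higher, led by HMMR (1.96), another hyaluronan receptor, and 2 lower, HYAL2 (-0.89) and EZR (-0.61). With the correction HMMR stood at 1.38 and HYAL2 at -0.33, both called. Of 4 CD47 partners THBS1 (0.48), a secreted ligand of CD47, was higher, and QPCTL (-0.96), the enzyme that modifies CD47 for SIRPA binding, and SIRPA (-0.38) were lower. With the correction QPCTL (-0.42) was still called, and THBS1 (0.20, adjusted p = 0.18, limma) and SIRPA (-0.07, adjusted p = 0.47, limma) were not.

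TNF-α in KD cells raised 37 and lowered 23 of the 96, against 31.1% and 31.4% of all genes. In the list of immunoglobulin-family receptors 7 of 13 rose, led by NECTIN2 (0.97) and BCAM (0.91), and 3 fell, NECTIN3 (-1.13), ALCAM (-1.05) and CD58 (-0.54). With the GC and length correction CD58 was not called (-0.28, adjusted p = 0.089, limma). Among integrin adaptors ZYX (1.49) and TLN1 (0.89) rose and LIMS1 (-0.79) and PTK2 (-0.64) fell. ADAM9 (-1.196) and ADAM10 (-1.19) fell. In control cells each of these genes but ALCAM, whose value was 0.59, was not called. The interaction term was called in 29 of the 96 as higher and in 21 as lower in KD cells, against 23.8% and 22.3% of all genes, and ALCAM had one of -1.65.

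In bulk RNA-seq, fewer cells that express a gene and less RNA per cell cannot be told apart, which holds for each level given here.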

How the data were processed

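Bulk RNA-seq libraries were made with Illumina kits and sequenced on an Illumina NovaSeq instrument. The submitters' processing notes name CASAVA 1.8, fastp, HISAT2 2.0.5, featureCounts 1.5.0-p3 and DESeq2 1.20.0 with GRCh38, and the study's methods name edgeR. The authors deposited FPKM per gene in 1 table per group. The library sizes within these values were 0.925 to 1.21 times the recovered reads, and how they had been scaled was not established here. FPKM multiplied by exon length gave whole reads within 0.01 for 100% of the values, from which depth (15601098 to 18677023 reads) was recovered; no column of per-sample values was left aside (0).

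Differences were fitted on log2(FPKM + 1) with limma 3.58.1 (R 4.3.3), with a trend on mean expression, 1 mean per group over 8 libraries (4 residual degrees of freedom) and Benjamini-Hochberg adjustment over 16528 genes that reached 10 reads, scaled to the median depth, in 2 libraries and 15 reads in all. Calls are two-sided at an adjusted p of 0.05. The fit was tested on simulated reads with the same spread in every group, unlike these libraries, so that test does not cover this difference. Annotation was GENCODE release 29 on GRCh38, matched for all 58735 genes, and promoters came from RefSeq on GRCh38.p14. Groups came from the labels. The correlation of the deviations of same-numbered libraries was 0.35 between the unstimulated groups and -0.19 to 0.017 in the other 5 pairs of groups, so not every pair was above 0.1 and the numbers were not used as pairs. Ratios of ICAM1 and VCAM1 carry exact binomial 95% intervals. Alternatives changed the pseudocount (0.1), the filter, the scaling, the fit (limma voom on recovered reads), the libraries, a replicate block and a GC and length correction (splines with 5 degrees of freedom). Members and gene lists were chosen with earlier results of these data known. Named are all members, WSB2, up to 3 called genes per list, direction and comparison with the largest difference, and the 3 genes most like ICAM1, VCAM1 and SDC4. Figures were drawn with matplotlib 3.10.9 in Python 3.11.15, with pandas 2.3.3, numpy 2.4.6 and scipy 1.17.1. The result of 1 marker gene is not reported here.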

Additional observations from a re-analysis of the deposited data

Results flagged for a closer look

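The effect of TNF-α differed between KD and control cells, by the interaction term of limma on log2(FPKM + 1), in 6 of the 10 genes. Of these, 4 were higher in KD cells, against 23.8% of all genes tested, and 2 lower, against 22.3%. The term, KD minus control, was 0.86 for SDC1, 0.76 for SDC4, 0.71 for ITGA5, 0.56 for SDC3, -0.59 for CD47 and -1.36 for ITGA2. For SDC4 and ITGA5 both kinds of cell rose with TNF-α and KD cells rose more, while for SDC1, SDC3, CD47 and ITGA2 a call in 1 kind of cell or none stood beside an uncalled value in the other. All 6 terms contain the unstimulated KD libraries, whose mitochondrial share and GC content stood apart from the other 6 libraries. With the GC and length correction SDC4 (0.58), ITGA5 (0.51), SDC1 (0.30) and ITGA2 (-0.73) were still called, and SDC3 (0.21, adjusted p = 0.20, limma) and CD47 (0.14, adjusted p = 0.45, limma) were not.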

How the results depend on the processing

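With 2 libraries a group, calls rest on 4 residual degrees of freedom; VCAM1 and ICAM1 rest on few reads, and every comparison with unstimulated KD cells rests on libraries of another composition. Of 840 values of single members under the alternatives, 731 kept direction and call, 54 lost and 18 gained the call, and 37 changed sign. The cause of a change was not tested except where the construction shows it (fewer libraries, fewer or more genes).

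With TNF-α, KD against control called 19 genes in all, and 7 without the filter, 12 with upper-quartile scaling, 52 with voom, 39 with only the 4 libraries compared, 68 with the GC and length correction, and 0 to 98 when libraries were left out in turn; members called stayed at 0. TNF-α in control cells called 701 genes, and 368 without the filter, 238 with only the 4 libraries, and 229 to 2130 when libraries were left out, with 2130 without the second unstimulated control library; members called higher were 3 with only the 4 libraries and 3 to 6 when libraries were left out (3 without either stimulated control library), and members called lower were 0 with only the 4 libraries and 0 to 1 when libraries were left out. Scaling to total reads left 1 member lower without TNF-α and 3 lower with TNF-α in KD cells. Members lower in KD cells with TNF-α were 2 with voom, 2 with only the 4 libraries and 1 to 2 when libraries were left out (2 without either unstimulated control library). In the interaction 1 member was lower with the GC and length correction and 0 with that correction and the block. Only the 4 libraries compared cannot give the interaction.

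With the replicate block, KD against control with TNF-α called 10 genes, and 42 with the GC and length correction; 4 instead of 6 members were higher with TNF-α in control cells, since VCAM1 and CD47 lost their calls at 0.24 and 0.50. The numbers were not taken as pairs, since only 1 of 6 pairs of groups correlated above 0.1, and a call lost there is not read as a weaker effect.

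Values that changed sign were as follows, with the block values of the GC and length correction equal to those without it. KD against control without TNF-α: CD44 -0.088 with upper-quartile scaling and -0.17 with the GC and length correction, CD47 -0.23 and ICAM1 0.42 with that correction, and VCAM1 0.14 with voom. TNF-α in KD cells: CD47 0.063 with upper-quartile scaling and 0.58 with the correction, and ITGA2 0.054 with the correction. TNF-α in control cells: SDC3 -0.035 with total reads and -0.062 with the correction. Interaction: CD44 -0.15 with total reads, SDC2 0.13 with upper-quartile scaling and 0.12 with the correction, and CD47 0.14, ICAM1 -0.40 with the correction, and VCAM1 -0.091 with voom. The corrected ICAM1 values of 0.42 and -0.40 rest on what the correction adds to a gene with few reads. When libraries were left out, signs turned only in values that were not called: KD against control with TNF-α ranged from -0.070 to 0.12 for ICAM1, -0.063 to 0.028 for SDC1 and -0.034 to 0.048 for VCAM1; without TNF-α from -0.10 to 0.012 for ICAM1 and -0.019 to 0.012 for VCAM1; TNF-α in control cells from -0.058 to 0.14 for SDC3; and the interaction from -0.024 to 0.16 for ICAM1 and -0.031 to 0.051 for VCAM1. SDC3 lost its call without TNF-α (-0.27) and in the interaction (0.46) without the second unstimulated KD library, and CD44 gained one without TNF-α (0.19) without the second unstimulated control library.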
